A study of Rattus norvegicus with 4 samples.

Results

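The Myc and Max network genes *Myc*, *Mycn*, *Mycl*, *Max*, *Mga*, *Mnt*, *Mxd1*, *Mxd3*, *Mxd4* and *Mxi1* were examined in poly(A) RNA-seq libraries of rat embryonic stem cells (ESCs). Their rows were found by gene symbol and are 10 of the 34773 genes of the deposited table, each with a single row. All 10 had enough counts to be tested. The study compared *Thop1*-KO cells with their parental line, to learn which genes differ when *Thop1*, the gene of an intracellular zinc peptidase, is disrupted. The control was 1 library of DA-5-3GFP (labelled WT), the rat ESC line DA-5-3 carrying a GFP reporter behind *Rex1*. *Thop1*-KO was sequenced as 1 library of each of 3 subclones (#1, #2 and #3), which were made from DA-5-3GFP with Cas9 and puromycin selection and carry the same reporter. Each subclone is 1 clone. The methods describe culture of these lines on feeder cells in 2i/LIF medium, which holds the MEK inhibitor PD0325901, the GSK3 inhibitor CHIR99021 and LIF. The methods call DA-5-3 diploid, whereas the deposited design calls the sequenced cells haploid.

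Proteins of this network share a basic helix-loop-helix leucine zipper and bind DNA in pairs, with MAX as the common partner. MYC, MYCN and MYCL pair with MAX at E-box sequences and raise genes of growth, ribosome assembly and metabolism. MNT and the MXD proteins, among them MXI1, compete for MAX and recruit the SIN3 and histone deacetylase corepressors. MGA also carries a T-box domain and brings MAX into a variant Polycomb complex, PRC1.6, which keeps germ cell genes silent in ESCs. In ESCs, Myc activity is known for sustaining proliferation and self-renewal, and GSK3 and ERK both act on the stability of the MYC protein.

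Library totals lay between 15405499 and 17936544 counts, and 15028 genes passed the filter on low counts. *Thop1* was at 92.5 to 149 CPM (counts scaled to library size by TMM) in the subclones and at 370 CPM in DA-5-3GFP (edgeR adjusted p = 0.0187). The ESC gene *Pou5f1* was at 3889 to 4842 CPM in the subclones and 4794 in the control, and *Nanog* at 334 to 494 and 468. The ESC markers as a list were not level. The 11 symbols found had 12 tested rows, as *Dppa3* has a row on chromosome 4 and another on chromosome 3. The log2 fold changes of these *Dppa3* rows were 1.12 and -0.61 in turn. Of the 12 rows 4 were called, which is 33.3% beside 13.8% of all genes. *Esrrb* and *Tfcp2l1* were called higher and *Utf1* and *Dppa5* lower. Of 10 fibroblast markers tested, a list that stands for feeder cells, 0 passed edgeR's adjusted test, beside 13.8% of all genes. At an unadjusted p under 0.05 in edgeR there were 3, beside 34%, and DESeq2 called 2, beside 21.3%. Their median log2 fold change was 1.40, with 9 of the 10 positive, where 51.9% of all genes were positive. DA-5-3GFP lay below all 3 subclones in 8 of the 10, where 38.1% of all genes were so placed. Some of these markers were near the floor, as DA-5-3GFP had 8 counts of *Prrx1*, 2 of *Pdgfra* and 3 of *Postn*. With at least 10 counts required in every library, 7 markers remained, 6 of them positive, with a median of 1.10. The summed level of the listed fibroblast genes was 851 to 870 CPM in the subclones and 370 CPM in the control, and *Dcn*, *Lum* and *Thy1* were at 0 in every library. The markers *Fbln1* and *Col1a1* were the largest contributors and ordered the subclones differently. *Fbln1* was at 519, 188 and 445 CPM in #1, #2 and #3 and 158 in DA-5-3GFP, and *Col1a1* at 304, 555 and 374 CPM and 190. The part of feeder RNA in the values below was not tested, and fewer cells of a type cannot be told apart from less RNA per cell. Subclone #2 stood apart from the other two: the chi-square statistic per degree of freedom was 22.1 between #1 and #3, 66.3 between #1 and #2, and 44.0 between #2 and #3. Between DA-5-3GFP and a subclone it was lowest for #2, at 126, against 183 for #1 and 174 for #3. Results that rest on #2 are therefore given with and without it.

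No member of the network passed the test between *Thop1*-KO and DA-5-3GFP. At an adjusted p under 0.05 in edgeR's quasi-likelihood test, 0 of the 10 members were called, where 13.8% of all genes tested were called, 8.62% higher and 5.17% lower. At an unadjusted p under 0.05 there were 3 members, *Mycn*, *Mycl* and *Mxi1*, and 34% of all genes. The control library lay below all 3 subclones in 6 members and above all 3 in 3, while for all genes these shares were 38.1% and 37.6%, or 75.7% together. A position outside the subclones' range is thus frequent in these libraries, and only *Mxd3* had the control inside it. The median log2 fold change of the 10 members was 0.87, and that of all genes tested was 0.06. With a correction for gene length these medians were 0.49 and -0.09. With 1 library on one side and 3 on the other, the smallest p of an exact one-sided permutation test is 0.25, so each p-value rests on edgeR's variance model. For the same reason the genotype and the single control culture cannot be told apart.

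**Figure D1:**
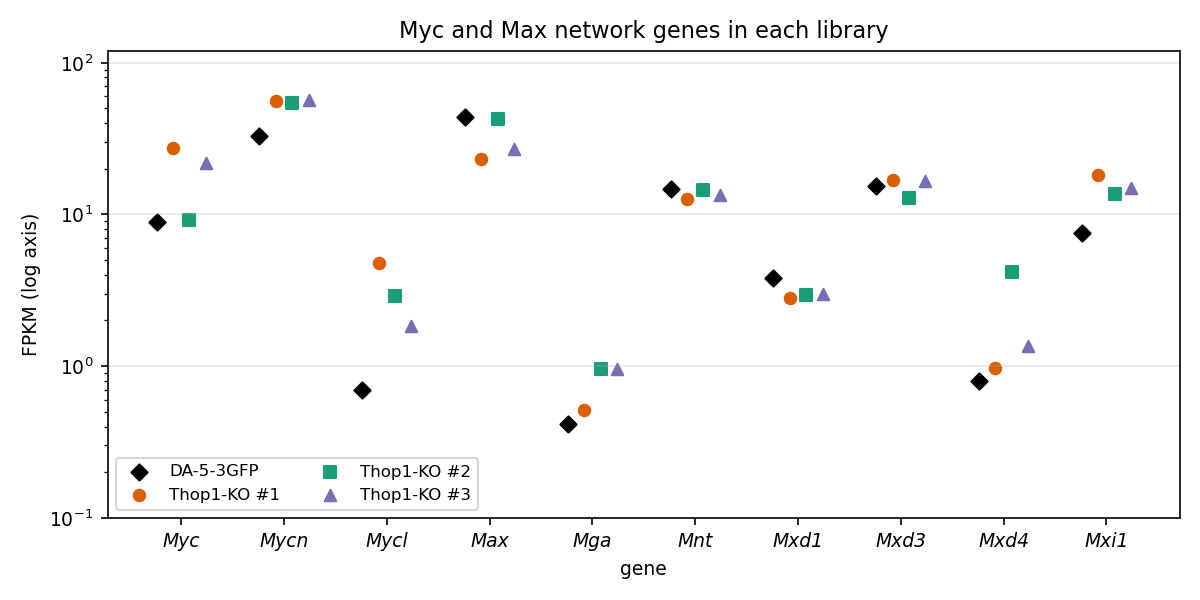
Deposited FPKM of the 10 Myc and Max network genes on a log axis, with a black diamond for DA-5-3GFP and coloured symbols for the 3 *Thop1*-KO subclones. *Mycn* lies at 54.3 to 57.2 in the subclones and 32.8 in the control, and for *Myc* and *Max* the square of #2 lies beside the control.

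Per length, *Mycn* and *Max* were the most abundant members. FPKM is the unit that allows genes to be compared with each other. In DA-5-3GFP the order from the top was *Max* at 43.7 FPKM, *Mycn* at 32.8, *Mxd3* at 15.4, *Mnt* at 14.8, *Myc* at 8.93 and *Mxi1* at 7.50. *Mxd1* followed at 3.79, *Mxd4* at 0.801, *Mycl* at 0.700 and *Mga* at 0.417. In the subclones *Mycn* came first with a mean of 55.8 ± 1.45 FPKM (SD, n = 3), and its range did not overlap that of *Max*, at 31.0 ± 10.4. The ranges of *Max*, *Myc* (19.6 ± 9.39), *Mxi1* (15.6 ± 2.27), *Mxd3* (15.5 ± 2.26) and *Mnt* (13.5 ± 0.949) overlapped from each neighbour to the next. The same held for *Mycl* (3.17 ± 1.47), *Mxd1* (2.93 ± 0.0945) and *Mxd4* (2.17 ± 1.75 FPKM), which lay below *Mnt* without overlap. *Mga* was last, at 0.813 ± 0.256 FPKM, and its highest subclone value of 0.963 lay just under the lowest of *Mxd4*, 0.977.

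*Mycn* (ENSRNOG00000051372) is a minus-strand gene of chromosome 6, at 38222555 to 38228379 of the deposited annotation, whose genome build is not given in the sources used here. It encodes N-Myc, the Myc protein prominent in embryonic and neural tissue. *Mycn* had 2465, 2539 and 2754 counts in subclones #1, #2 and #3 in turn, beside 1290 in DA-5-3GFP. After normalization it was at 147, 144 and 153 CPM in the subclones and 86.8 CPM in the control. The subclones were thus nearly level, all above the control. Their highest value was 1.07 times the lowest, while the median of this ratio was 1.56 over the 14669 genes tested for which it could be formed. The log2 fold change of *Mycn* was 0.77 (standard error, SE, 0.24, edgeR adjusted p = 0.0755), which did not pass.

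*Myc* (ENSRNOG00000004500), on the plus strand of chromosome 7 (102586313 to 102591240), encodes c-Myc, the founding member of the family. It had 1253, 445 and 1087 counts in subclones #1, #2 and #3 in turn, beside 362 in DA-5-3GFP. After TMM scaling they stood at 74.7, 25.2 and 60.5 CPM in the subclones and 24.4 in the control. *Myc* was therefore 3.07 and 2.48 times the control in #1 and #3 and 1.03 times in #2, so that #2 and the control were nearly level. For *Myc* the log2 fold change was 1.13 (SE 0.60, edgeR adjusted p = 0.224). Without #2 it was 1.47 (SE 0.27, edgeR adjusted p = 0.00123) and *Myc* was called. Without #1 it was 0.82 and without #3 it was 1.04, and it was not called in either case. The related gene *Mycs*, which shares sequence with *Myc*, had at most 5 counts in any library.

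*Mycl* (ENSRNOG00000014259), on the plus strand of chromosome 5 (140692779 to 140698609), encodes L-Myc, a paralog with weaker transforming activity. It had 236, 153 and 100 counts in subclones #1, #2 and #3 in turn, beside 31 in DA-5-3GFP. On the CPM scale it was at 14.1, 8.65 and 5.57 in the subclones and 2.09 in the control. All 3 subclones lay above the control, with ratios of 6.75, 4.15 and 2.67. *Mycl* thus had the largest fold of the 10 members at a low level. The log2 fold change was 2.17 (SE 0.65, edgeR adjusted p = 0.0703). DESeq2's Wald test called *Mycl*, with a log2 fold change of 2.18 and an adjusted p of 0.00691, and without #2 edgeR called it with 2.23 and an adjusted p of 0.00883.

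The 3 paralogs were also added up per length, as a description with no test. Their summed level was 88.2, 66.5 and 81.0 FPKM in #1, #2 and #3 and 42.4 FPKM in DA-5-3GFP. Each subclone held more paralog RNA than the control, and #2 held the least of the 3. *Mycn* made up 77.3% of the sum in the control and 63.4%, 81.7% and 70.7% in the subclones. *Myc* made up 21.0% in the control and 31.2%, 13.9% and 27.1% in #1, #2 and #3. The shares of #1 and #3 lay on one side of the control and those of #2 on the other. *Mycl* contributed 1.65% in the control and 5.39%, 4.37% and 2.28% in the subclones.

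*Max* (ENSRNOG00000008049), on the minus strand of chromosome 6 (99984260 to 100011388), encodes the common partner of the proteins of the network. It had 780, 1525 and 987 counts in subclones #1, #2 and #3 in turn, beside 1308 in DA-5-3GFP. In normalized CPM these were 46.5, 86.3 and 54.9 in the subclones and 88.0 in the control. *Max* stood at 0.528 and 0.624 times the control in #1 and #3 and at 0.980 times in #2. As for *Myc*, #2 lay beside the control, but here #1 and #3 lay below it. For *Max* the log2 fold change was -0.49 (SE 0.37, edgeR adjusted p = 0.376). Without #2 it was -0.79 (SE 0.23, edgeR adjusted p = 0.0181) and *Max* was called lower. It was -0.31 without #1 and -0.41 without #3, with no call.

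**Figure D2:**
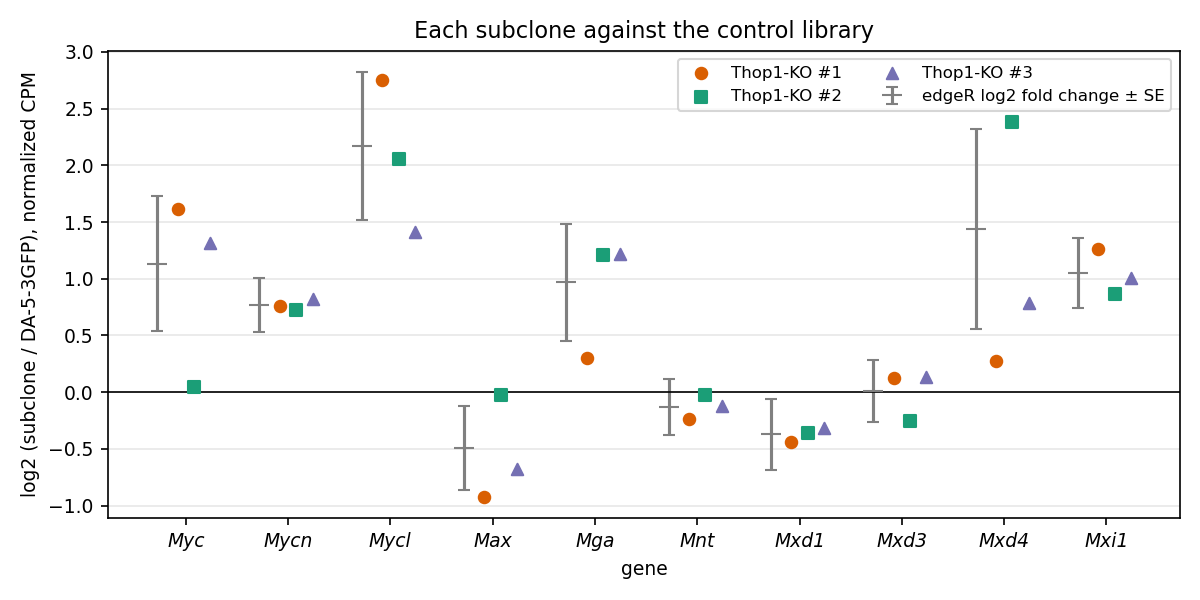
The log2 ratio of each *Thop1*-KO subclone to DA-5-3GFP in TMM-normalized CPM for each gene (coloured symbols), with the edgeR log2 fold change and its standard error in grey. The square of #2 lies near 0 for *Myc* and *Max*, away from #1 and #3, whereas the 3 symbols of *Mycn* nearly coincide.

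The amounts of paralog and partner transcripts per length can be set side by side. The 3 paralogs together were 0.972 times *Max* in DA-5-3GFP, and 3.80, 1.55 and 3.01 times *Max* in #1, #2 and #3. Summed over *Mnt*, *Mxd1*, *Mxd3*, *Mxd4* and *Mxi1*, the repressors were at 42.3 FPKM in the control and at 51.5, 48.3 and 49.4 FPKM in the subclones. Of this sum *Mxd3* made up 36.4% in the control and 32.9%, 26.7% and 33.8% in #1, #2 and #3. The level of *Mxd3* is uncertain because it overlaps another gene, and so is the sum. The paralogs were 1.00 times this sum in the control and 1.71, 1.38 and 1.64 times in #1, #2 and #3. In the control the 3 classes were therefore nearly level, while in each subclone the paralogs exceeded the repressors and the repressors exceeded *Max*. These are transcript ratios in 4 libraries, with no test and no measure of protein.

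**Figure D3:**
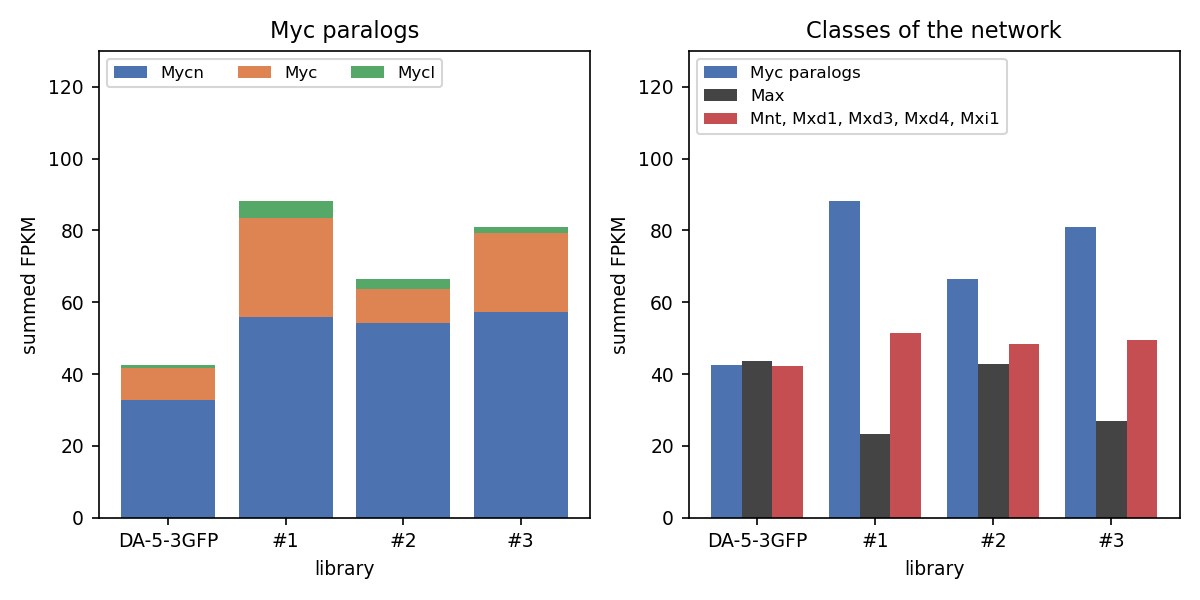
Summed FPKM per library, stacked by paralog on the left and by class on the right (Myc paralogs, *Max*, and the repressors *Mnt*, *Mxd1*, *Mxd3*, *Mxd4* and *Mxi1*). The classes stand at 42.4, 43.7 and 42.3 in DA-5-3GFP, and *Max* is the lowest bar in each subclone.

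Among the repressors, *Mxi1* (ENSRNOG00000034078) is a plus-strand gene of chromosome 1, from 274030978 to 274090071. It encodes a MAX partner that antagonizes MYC and is also known as MXD2. *Mxi1* had 900, 723 and 808 counts in subclones #1, #2 and #3 in turn, beside 333 in DA-5-3GFP. After TMM scaling they stood at 53.7, 40.9 and 45.0 CPM in the subclones and 22.4 in the control. The groups did not overlap, and the subclones were 2.39, 1.83 and 2.01 times the control. The log2 fold change of *Mxi1* was 1.05 (SE 0.31, edgeR adjusted p = 0.0657), the smallest p-value of the 10 members. DESeq2's Wald test called it with an adjusted p of 0.0270, and edgeR called it without #2 with an adjusted p of 0.00670.

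*Mxd4* (ENSRNOG00000015033), a MAX dimerization gene, is on the plus strand of chromosome 14 (81819415 to 81833456). It had 67, 304 and 102 counts in subclones #1, #2 and #3 in turn, beside 49 in DA-5-3GFP. On the CPM scale it was at 3.99, 17.2 and 5.68 in the subclones and 3.30 in the control. Subclone #2 was the high library, at 5.22 times the control, and the subclones spread by a factor of 4.30, the widest among the members. The log2 fold change of *Mxd4* was 1.44 (SE 0.88, edgeR adjusted p = 0.286), and 0.55 without #2. Fibroblast markers were likewise highest in #2 in 8 of the 10 tested, among them *Col3a1* and *Col1a1* but not *Fbln1*, and their part in the *Mxd4* value was not tested.

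*Mnt* (ENSRNOG00000002894), on the plus strand of chromosome 10 (61685241 to 61700491), encodes the broadly expressed antagonist of MYC. It had 975, 1188 and 1131 counts in subclones #1, #2 and #3 in turn, beside 1019 in DA-5-3GFP. In normalized CPM these were 58.1, 67.2 and 62.9 in the subclones and 68.6 in the control, for a log2 fold change of -0.13 (SE 0.25, edgeR adjusted p = 0.741). The subclones lay just under the control, within 1.16 times of each other.

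*Mxd1* (ENSRNOG00000017720) is on the minus strand of chromosome 4 (118449882 to 118472179) and encodes MAD1, which rises as many cell types leave the cell cycle. It had 216, 240 and 251 counts in subclones #1, #2 and #3 in turn, beside 259 in DA-5-3GFP. After TMM scaling they stood at 12.9, 13.6 and 14.0 CPM in #1, #2 and #3 and 17.4 in DA-5-3GFP. All 3 lay below the control, and the log2 fold change of -0.37 (SE 0.31, edgeR adjusted p = 0.428) did not pass.

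*Mxd3* (ENSRNOG00000016539), on the plus strand of chromosome 17 (9830332 to 9839452), encodes the family member linked to the S phase of proliferating cells. It had 1714, 1383 and 1840 counts in subclones #1, #2 and #3 in turn, beside 1390 in DA-5-3GFP. On the CPM scale it was at 102, 78.2 and 102 in the subclones and 93.5 in the control, which lay inside their range. The log2 fold change was 0.01 (SE 0.27, edgeR adjusted p = 0.981), and its sign flipped with the scaling. *Mxd3* is the only member that overlaps another gene of the table. *Prelid1* lies within it on the opposite strand over 3062 bases and is listed at 0 counts in every library. The library kit does not mark strand in its plain form, so reads of *Prelid1* and *Mxd3* cannot be told apart and the level of *Mxd3* is uncertain.

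*Mga* (ENSRNOG00000006378), on the plus strand of chromosome 3 (111699021 to 111759911), is the long gene of the T-box member, with 9398 bases of exon sequence. It had 82, 162 and 166 counts in subclones #1, #2 and #3 in turn, beside 59 in DA-5-3GFP. In normalized CPM these were 4.89, 9.16 and 9.24 in the subclones and 3.97 in the control. Here #2 and #3 were high, #1 lay nearer the control, and the groups did not overlap. For *Mga* the log2 fold change was 0.97 (SE 0.52, edgeR adjusted p = 0.232).

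The members differed in how far the subclones spread. The ratio of the highest to the lowest subclone was 1.07 for *Mycn*, 1.08 for *Mxd1*, 1.16 for *Mnt* and 1.31 for *Mxd3* and *Mxi1*. It was 1.85 for *Max*, 1.89 for *Mga*, 2.53 for *Mycl*, 2.97 for *Myc* and 4.30 for *Mxd4*. The median over the members was 1.58, and over all genes tested it was 1.56 with quartiles of 1.28 and 2.18. Each subclone has 1 library, so the subclones cannot be tested against each other. Subclone #2 was the highest of the 3 for *Max*, *Mnt* and *Mxd4* and the lowest for *Myc*, *Mycn*, *Mxd3* and *Mxi1*. Without #2, edgeR called *Myc*, *Mycn*, *Mycl* and *Mxi1* higher and *Max* lower, 5 of 10 members, where 37.9% of all genes were called. DESeq2's Wald test called 2 of the 10, *Mycl* and *Mxi1*, where it called 21.3% of all genes. Neither share is far from its background. Without #1 or without #3 edgeR called 0 members, beside 13.6% and 3.1% of all genes.

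To show the letters these proteins are known to bind, the promoters of the members were searched. Promoters were taken from RefSeq (GRCr8, a build separate from the coordinates above) as 300 bases, 250 before and 50 after each start. Of the 10 members, 8 have an entry; *Myc* and *Mycn* are the others. The E-box CACGTG, which reads the same on both strands, was found in *Max*, *Mnt* and *Mxd4*, 3 of these 8, and in 6.42% of all 33469 promoters. The T-box core site AGGTGTGA, searched on both strands, was found in *Mga* alone, and in 1.1% of all promoters. *Mga* has 4 start sites and a match at any of them counted, whereas the share of all promoters is per single promoter. The windows below are 30 bases long, read 5′ to 3′ on the strand of the gene, with the E-box or T-box letters in capitals.
*Max*, chr6:101395306-101395335, minus strand, E-box 33 bases before the start: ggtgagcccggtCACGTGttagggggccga
*Mnt*, chr10:60197824-60197853, plus strand, E-box 123 bases before the start: ccccacccaagcCACGTGtgcgcgcgcgat
*Mxd4*, chr14:80786572-80786601, plus strand, E-box 197 bases before the start: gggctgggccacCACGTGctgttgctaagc
*Mga*, chr3:127305299-127305328, plus strand, T-box core site 65 bases before the start: gttatgccggtAGGTGTGAgcattcttggt
The 3 genes with an E-box had no common direction, since *Max* and *Mnt* were lower and *Mxd4* higher in the subclones, and none passed the test. These matches describe sequence only, and binding was not measured.

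Genes around the network were described by lists. In the parallel Mlx branch, *Mlxip*, which encodes the glucose-sensing factor MONDOA, was called. It had 128, 192 and 125 counts in subclones #1, #2 and #3 in turn, beside 30 in DA-5-3GFP, all 3 subclones above the control, with a log2 fold change of 2.07 (SE 0.50, edgeR adjusted p = 0.0410). Its partner *Mlx* was at 46.4, 52.4 and 45.6 CPM against 37.3 and did not pass. *Mlxip* lost its call under upper quartile scaling, under limma, with the correction for gene length and without #3. The fit without #3 called 3.1% of all genes.

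Of 12 tested genes of the SIN3 and histone deacetylase corepressors, 2 were called, beside 13.8% of all genes. The histone chaperones *Rbbp4* and *Rbbp7*, close homologues of each other, went opposite ways. *Rbbp4* rose with a log2 fold change of 1.12 (edgeR adjusted p = 0.0338), from 58.9 CPM in DA-5-3GFP to 123 to 133 in the subclones. *Rbbp7* fell by 0.87 on the log2 scale (edgeR adjusted p = 0.0421), from 399 CPM to 203 to 234. *Sin3a* and *Sin3b*, the scaffolds, had the control inside the range of the subclones. The median log2 fold change of the list was -0.07. Without #1, 1 gene of the list was called, beside 13.6% of all genes, and without #3, 0, beside 3.1%.

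Of 16 tested cofactors of Myc, 2 were called and both rose, which is 12.5% beside 13.8% of all genes. *Hcfc1*, which encodes a chromatin adaptor that binds MYC, was at 111, 147 and 116 CPM in #1, #2 and #3 and at 13.2 in DA-5-3GFP. Its log2 fold change was 3.24 (SE 0.34, edgeR adjusted p = 0.00693). The acetyltransferase gene *Ep300* had 173, 187 and 165 counts in turn, beside 8 in the control, and a log2 fold change of 4.20 (SE 0.51, edgeR adjusted p = 0.00803). For both genes the subclones were close together and far from the control. *Trrap*, *Kat5* and *Wdr5* had the control inside the subclones' range. The median log2 fold change of the list was 0.37, and without #2 the called genes numbered 6, in a fit that called 37.9% of all genes.

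Of 15 tested genes that set the stability of Myc proteins, 5 were called, 4 higher and 1 lower, which is 33.3% beside 13.8% of all genes. The ubiquitin ligase gene *Huwe1* was at 191, 279 and 237 CPM in the subclones and 74.0 in the control, for a log2 fold change of 1.67 (edgeR adjusted p = 0.0213). *Stub1*, the gene of the chaperone-linked ligase CHIP, had a log2 fold change of 1.37 (edgeR adjusted p = 0.0221). *Gsk3a*, a kinase of the site that marks MYC for degradation, was at 1.51 (edgeR adjusted p = 0.0270), and the ligase gene *Trim32* at 1.25 (edgeR adjusted p = 0.0492). The deubiquitinase gene *Usp37* fell by 1.49 on the log2 scale (edgeR adjusted p = 0.0211), from 61.4 CPM to 18.5 to 23.9. *Fbxw7*, the ligase that reads the marked site, was at 6.38, 6.11 and 6.85 CPM against 5.18 and did not pass. *Stub1*, *Gsk3a* and *Usp37* overlap other genes with counts (*Jmjd8*, *Zfp526* and *Vil1*), so some of their reads are uncertain. *Jmjd8* had 138, 110 and 153 counts in #1, #2 and #3 beside 32 in DA-5-3GFP, and *Zfp526* 337, 335 and 444 beside 23. Both were higher in the subclones, like *Stub1* and *Gsk3a*. *Vil1* had 18, 12 and 11 beside 4, opposite to *Usp37*. The part of the overlapping genes in these calls was not tested. Without #3, 0 genes of the list were called, beside 3.1% of all genes.

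Of 14 partners of Mga and Max in PRC1.6, 1 was called, which is 7.14% beside 13.8% of all genes. *Cbx1*, which encodes the heterochromatin protein HP1 beta, rose from 22.9 CPM to 63.7, 70.0 and 61.6 in #1, #2 and #3, for a log2 fold change of 1.5 (SE 0.28, edgeR adjusted p = 0.0219). *Pcgf6*, the subunit that defines the complex, was at 16.2, 22.9 and 13.3 CPM in the subclones and 27.0 in the control, with no call. *Hdac1*, *Hdac2* and *Wdr5* of this list also belong to the lists above. Without #2, where 37.9% of all genes were called, 6 genes of the list were, and without #3, where 3.1% were, 0.

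Of the germ cell and meiosis genes that this complex is known to keep silent in ESCs, 17 were tested. Of these, 2 were called, both lower in *Thop1*-KO, which is 11.8% beside 13.8% of all genes. Not all were silent here, as DA-5-3GFP had 339 counts of *Stag3* and 289 of *Ddx4*, while 3 listed genes were at 0 in every library. *Stk31* had 30, 15 and 39 counts in subclones #1, #2 and #3 in turn, beside 128 in DA-5-3GFP, for a log2 fold change of -2.42 (SE 0.55, edgeR adjusted p = 0.0360). *Dazl*, which encodes a germ cell RNA-binding protein, had 1, 8 and 4 counts and 47 in the control, and a log2 fold change of -3.64 (SE 0.90, edgeR adjusted p = 0.0433). *Dazl* had fewer than 10 counts in every subclone and passed the filter on low counts through the control library. With at least 10 counts required in every library, 13 genes remained, without *Dazl*, with a median log2 fold change of -0.57. In 10 of the 17 genes DA-5-3GFP was above every subclone, and in 2 it was below every subclone, where 37.6% and 38.1% of all genes were so placed. The median log2 fold change was -0.56, with 5 genes called without #2, beside 37.9% of all genes, and 0 without #3, beside 3.1%.

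**Figure D4:**
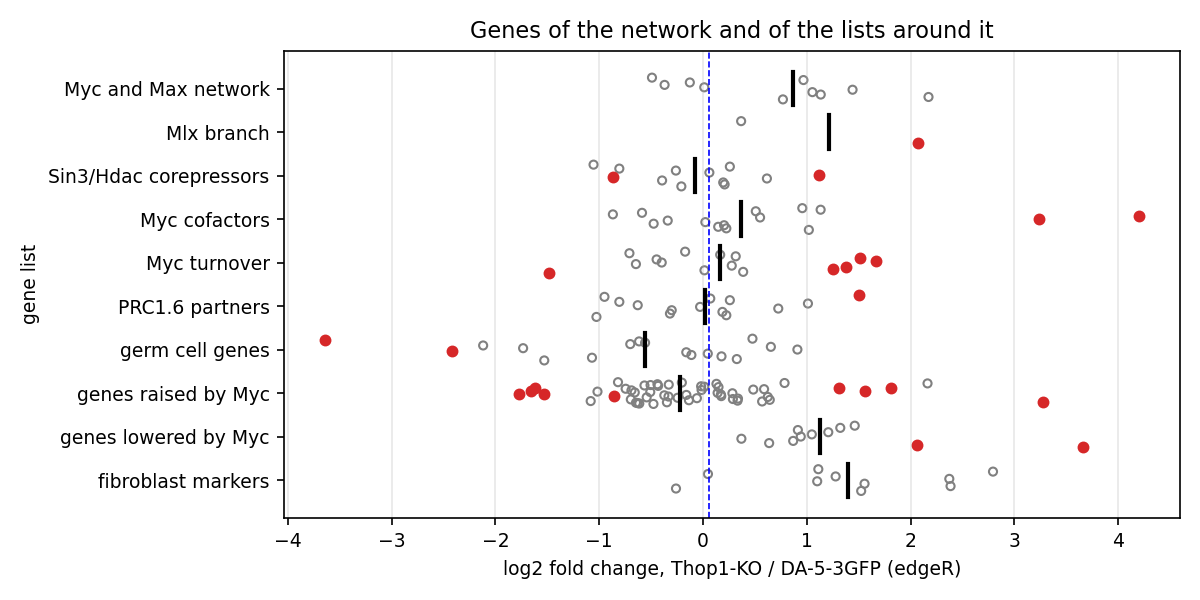
The edgeR log2 fold change of *Thop1*-KO over DA-5-3GFP for each tested gene of the network and of the lists around it, in red where the adjusted p was under 0.05. Black bars are list medians, the dashed line is the median of all genes tested, 0.06, and genes at 0 counts in the control are not drawn. The members hold no red point and a median of 0.87, while genes raised by Myc have a median of -0.22.

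Genes that Myc is known to raise went both ways. Of 54 tested, 4 were called higher and 5 lower, in all 16.7% beside 13.8% of all genes, and the median log2 fold change was -0.22. The nucleolar protein genes *Npm1*, *Ncl*, *Gnl3* and *Nop58* were among those called lower. *Npm1* fell by 1.53 on the log2 scale (edgeR adjusted p = 0.0125), from 1287 CPM in DA-5-3GFP to 368, 495 and 471 in #1, #2 and #3. *Ncl* was at 260, 466 and 385 CPM against 1172 (log2 fold change -1.66, edgeR adjusted p = 0.0214). *Gnl3* fell by 1.62 and *Nop58* by 1.78 on the log2 scale. The fifth gene called lower, the mitochondrial prohibitin *Phb*, fell by 0.86 on that scale. Among the genes called higher, *Tert*, the catalytic subunit of telomerase, was at 65.2, 28.1 and 57.0 CPM against 5.18 (log2 fold change 3.27, edgeR adjusted p = 0.0203). The hexokinase gene *Hk2* was at 1161, 602 and 1074 CPM against 270 (log2 fold change 1.81, edgeR adjusted p = 0.0364). The purine synthesis gene *Gart* rose by a log2 fold change of 1.31 and *Mybbp1a*, a nucleolar transcription cofactor, by 1.56. *Mybbp1a* overlaps *Spns2*, which had at most 45 counts. The summed level of the list was 19724 to 20935 CPM in the subclones and 22785 CPM in the control. Without #2, 27 genes of the list were called, 8 higher and 19 lower, beside 37.9% of all genes. Without #3, 3 were called, beside 3.1% of all genes.

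Genes that Myc is known to lower had positive log2 fold changes in all 12 tested, with a median of 1.13, where 51.9% of all genes were positive. Some were near the floor, as DA-5-3GFP had 0 counts of *Gas1*, 6 of *Cebpd* and 8 of *Cdkn2b*. With at least 10 counts required in every library, 9 genes remained, all positive, with a median of 1.04. In 2 of the 12, *Cebpa* and *Gadd45a*, the control lay inside the range of the subclones. Of the 12, 2 passed, 16.7% beside 13.8% of all genes. Without #1 the values of 11 of the 12 were positive. *Thbs1*, which encodes the matrix protein thrombospondin, was at 47.6, 127 and 65.6 CPM in #1, #2 and #3 and 6.33 in DA-5-3GFP, for a log2 fold change of 3.66 (SE 0.67, edgeR adjusted p = 0.0210). *Ndrg2* was at 27.7, 13.9 and 16.8 CPM against 4.64, for a log2 fold change of 2.06 (SE 0.53, edgeR adjusted p = 0.0476). The cell cycle inhibitor gene *Cdkn1a* was at 169, 53.1 and 77.7 CPM against 40.0 and did not pass. Fibroblasts also express *Thbs1*, and 5 of the 10 fibroblast markers tested had its order of libraries, among them *Col3a1* at 16.2, 80.0 and 36.9 CPM against 6.39. *Fbln1*, *Pdgfra* and *S100a4* were among the 5 that did not. The part of fibroblast RNA in the *Thbs1* value was not tested. Without #2, beside 37.9% of all genes, 5 genes of the list were called, and without #3, beside 3.1%, 1.

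For each paralog the 3 tested genes with the most similar profile were found, by the root mean square difference of the 3 log2 ratios of subclone to control. This is a description over 4 libraries. *Ddx54*, *Arid1b* and *Il27ra* were nearest to *Mycn*, at 0.02, 0.02 and 0.03. *Btn2a2*, *Phyhd1* and *Plod3* were nearest to *Myc*, at 0.07, 0.08 and 0.08. *Gch1*, *Kcnab2* and the microRNA gene *Mir3064* were nearest to *Mycl*, at 0.12, 0.15 and 0.15.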

How the data were processed

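Poly(A) RNA libraries of 1 DA-5-3GFP culture and 3 *Thop1*-KO subclones were analysed. Per the labels, the authors used HISAT2 2.0.5 and featureCounts 1.5.0-p3, and the methods name the FASTX toolkit for trimming; the build is not given in the sources used here. The authors deposited raw counts per gene, and FPKM values made from those counts, gene length and 1 factor per library. Labels do not say whether libraries came from separate cultures. The single control library has no replicate, so p-values measure only the spread among the 3 *Thop1*-KO subclones.

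Counts were fitted with edgeR 4.0.16 in R 4.3.3 (filterByExpr with a minimum count of 10, TMM, quasi-likelihood test, Benjamini-Hochberg adjustment over 15028 genes, calls under 0.05). The standard error is the log2 fold change divided by the square root of F. Alternatives used DESeq2 1.42.0 and limma 3.58.1. FPKM, with its pseudocounts of 1 and 0.1, was used for limma and for levels between genes. The test was checked on simulated counts. No duplicated library was found.

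The members and lists were chosen with earlier results of these data known. Named are all members, *Thop1*, up to 4 called genes of a list per direction (other genes for contrast, chosen after their values were seen), and the nearest profiles. Promoters were to be shown for called members; as none was called, those holding a motif are shown. List symbols not matched in the table were not analysed here.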

Additional observations from a re-analysis of the deposited data

How the results depend on the processing

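No paired analysis was possible because DA-5-3GFP has 1 library with no replicate number. The 10 members were refitted under 13 alternatives. The signs of 9 members were the same under all of them, and *Mxd3*, which was never called, flipped: its log2 fold change was -0.0015 with DESeq2's size factors, -0.093 with upper quartile scaling, -0.38 with the correction for gene length, -0.0020 under limma on log2(FPKM + 0.1), -0.0013 on log2(FPKM + 1) with and without the filter, -0.042 without #1 and -0.052 without #3, against 0.13 without #2. The cause was not tested. DESeq2 called 2 members and leaving out #2 called 5; every other alternative called 0. Leaving out 1 subclone at a time, the members called ranged from 0 to 5, all genes called from 457 to 5572, and listed genes called from 10 to 71, against 29 of 168 in the fit with all libraries; the lowest values came without #3 and the highest without #2. The length correction shifted the median log2 fold change of all genes by -0.142, of which the shift of *Mxd3* is to be read net. Limma on log2(FPKM + 0.1) called 19 listed genes. Limma on log2(FPKM + 1) without the filter called 11 listed genes and 872 genes in all, 332 higher and 540 lower, and *Thop1* then had a log2 fold change of -1.67 with an adjusted p of 0.0879. The mean *Mycn* share of the paralogs in the subclones, 71.9%, ranged from 67.0% to 76.2% with a subclone left out. The folds of *Mycl*, *Mxd4* and *Mga* rest on low counts in the single control library, 31, 49 and 59 in turn. The part of counting error in them was not computed apart from the spread among subclones.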

Other observations

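Other genes of the lists had the order of libraries seen for *Myc*, with #2 beside DA-5-3GFP and #1 and #3 above. These genes were chosen after their values were seen and none passed edgeR's adjusted test. *Zbtb17*, which encodes MIZ1, the factor through which MYC lowers genes, was at 486, 216 and 414 CPM in #1, #2 and #3 and 184 in DA-5-3GFP. The matrix gene *Fbln1*, one of the fibroblast markers, was at 519, 188 and 445 CPM against 158. *Stag3*, a meiotic cohesin gene, was at 61.1, 24.7 and 42.8 CPM against 22.8. The order seen for *Max* was found in *Lin28a*, an RNA-binding protein gene of ESCs, at 57.6, 125 and 73.8 CPM against 149, and in *Yaf2*, of PRC1.6, at 1.49, 4.98 and 3.12 CPM against 6.53. *Cdx2*, the trophoblast factor, was at 3.34, 35.9 and 4.95 CPM in the subclones and 24.3 in the control.

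Among the differentiation markers, *Nes* was the only gene of 7 tested that was called. This neural filament gene had 6, 13 and 3 counts in subclones #1, #2 and #3 in turn, beside 126 in DA-5-3GFP (log2 fold change -4.31, edgeR adjusted p = 0.0147). The share called was 14.3% beside 13.8% of all genes. The list had no common direction, with 4 log2 fold changes positive, 3 negative and a median of 0.26. This median depended on the filter on low counts. Without the filter, edgeR gave a median of -0.90 over 12 genes. With at least 10 counts required in every library, 4 genes remained, with a median of 0.69. *Nes*, at 6 counts in #1, was not among those 4. DA-5-3GFP lay below all 3 subclones in 3 genes, *Sox17*, *Pou3f1* and *Gata6*, and above all 3 in 2. Among the ESC markers, *Esrrb* and *Tfcp2l1* were called higher and *Utf1* and *Dppa5* lower, 4 of 12 tested rows. The nuclear receptor gene *Esrrb* was at 330, 286 and 328 CPM in #1, #2 and #3 against 15.9 (log2 fold change 4.30, edgeR adjusted p = 0.00678). *Tfcp2l1*, a transcription factor gene of naive ESCs, was at 231, 254 and 279 CPM against 34.5 (log2 fold change 2.89, edgeR adjusted p = 0.00678). *Utf1* was at 622, 405 and 626 CPM against 1566 (log2 fold change -1.51, edgeR adjusted p = 0.0206), and *Dppa5* at 185, 212 and 164 CPM against 378 (log2 fold change -1.02, edgeR adjusted p = 0.0360).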
